A study of Arabidopsis thaliana with 17 samples.

Results

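The JASMONATE ZIM-DOMAIN (JAZ) genes encode repressors of the response to the hormone jasmonate. The 10 described here, JAZ1, 2, 3, 5, 6, 7, 8, 9, 10 and 12, were chosen by locus identifier, and each was found as an entry of its own among the 33201 entries of the authors' deposited table. RNA had been sequenced from root cells of Arabidopsis thaliana, a small weed used as a model plant, either as isolated cells, which served as the control, or in bioprinted constructs, in which a machine lays down living cells within a printable material. All 6 groups carried pSCR:SCR-mCherry, a red fluorescent fusion of the endodermal factor SCARECROW driven by the SCR promoter, so no group without the transgene was compared. At day 0 there were isolated cells and constructs of tissue labelled differentiated and of tissue labelled meristematic, with 3 libraries in each group. Constructs of differentiated tissue also had 3 libraries at day 1 and 2 libraries at day 3, and no later constructs of meristematic tissue were analysed here. The sources used here did not give the plants' age.

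Jasmonate accumulates in wounded tissue and, as its isoleucine conjugate, lets the F-box receptor COI1 bind JAZ proteins and mark them for destruction. JAZ proteins otherwise hold MYC2 and related transcription factors inactive, together with the adaptor NINJA and corepressors of the TOPLESS family. MYC factors in turn activate many JAZ genes, so JAZ transcripts are widely used as early readouts of jasmonate signalling. These statements are background and were not measured here.

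Expression was given as FPKM, fragments per length of transcript scaled to mapped fragments, so levels of different genes can be set side by side. The authors' deposited table gives every group 1 pooled FPKM and every one of 7 comparisons its log2 ratio with a q-value, which is a p-value adjusted for many genes. Genes are termed called if q was below 0.05 and FPKM was at least 1 in either group, and "rose" or "fell" is used of called genes only. The smallest q was 0.000551, and it holds for each called gene whose log2 ratio is printed below without a q. No SD is given for a gene, because a line of the single-library table does not hold 1 gene: line by line, 136 pairs of libraries had a median correlation of 0.290, against 0.942 for 15 pairs of pooled columns. FPKM keeps no read totals, so depth is unknown, and the labels do not tie each library to separate plants, so q-values may measure technical spread only. In bulk RNA, fewer cells of a type and less RNA per cell cannot be told apart. The tissue labels were checked against 5 genes of the root meristem (PLT1, PLT2, CYCB1;1, KNOLLE and WOX5). All 5 had lower pooled FPKM in meristematic than in differentiated cells. Only PLT1 was called lower (log2 ratio -1.88, q 0.0283) by the authors' deposited table, at 0.342 against 1.26 FPKM. PLT2 (1.11 against 1.92) and CYCB1;1 (0.510 against 1.06) were also near 1 FPKM. Neither was called, nor were WOX5 (23.8 against 29.4) and KNOLLE (4.61 against 6.17). Of all tested genes 3.12% were called lower. The 5 markers thus did not bear out the label meristematic, while the root cap markers BRN1 and BRN2 were called higher in meristematic cells. The labels are kept below as names only.

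The stretch before each gene's start was read from the RefSeq annotation of the TAIR10.1 genome, since MYC factors are known to bind the G-box. The sources used here do not give the authors' build, and the coordinates are those of TAIR10.1. The motifs searched on both strands were the G-box (CACGTG, which reads the same on either strand) and the T/G-box (AACGTG, or CACGTT on the other strand), which do not match at the same position. Of the 10 JAZ genes, 4 had a G-box and 4 a T/G-box in the 250 bases before their start, and 7 had either. Among 27437 protein-coding genes, 6.49% had a G-box in that stretch, 7.54% a T/G-box and 13.3% either. A match is a description of letters and does not show binding. The 4 stretches shown span the range of later change, since JAZ9 had the lowest ratio by day 3, JAZ8 an intermediate one, JAZ3 a smaller one, and JAZ12 was not called. They are written 5′ to 3′ on the plus strand, on which all 4 genes lie, with the matches in capitals. The stretch of JAZ9 is chr1:26654279-26654528, that of JAZ8 chr1:10596102-10596351, that of JAZ3 chr3:6119457-6119706 and that of JAZ12 chr5:7090454-7090703.
JAZ9: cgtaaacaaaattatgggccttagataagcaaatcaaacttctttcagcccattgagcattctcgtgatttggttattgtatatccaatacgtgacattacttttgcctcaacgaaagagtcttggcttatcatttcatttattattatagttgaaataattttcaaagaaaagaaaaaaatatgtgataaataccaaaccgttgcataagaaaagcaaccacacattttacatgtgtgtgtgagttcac
JAZ8: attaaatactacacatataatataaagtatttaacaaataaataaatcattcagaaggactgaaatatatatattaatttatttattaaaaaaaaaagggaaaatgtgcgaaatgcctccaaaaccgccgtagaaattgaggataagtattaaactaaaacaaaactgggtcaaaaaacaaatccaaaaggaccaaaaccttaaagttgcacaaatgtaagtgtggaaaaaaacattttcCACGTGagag
JAZ3: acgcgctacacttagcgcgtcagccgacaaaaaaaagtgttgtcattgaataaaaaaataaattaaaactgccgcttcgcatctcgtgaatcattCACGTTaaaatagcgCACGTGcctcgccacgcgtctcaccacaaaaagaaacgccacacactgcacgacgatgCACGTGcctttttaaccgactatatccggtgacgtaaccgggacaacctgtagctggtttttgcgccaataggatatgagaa
JAZ12: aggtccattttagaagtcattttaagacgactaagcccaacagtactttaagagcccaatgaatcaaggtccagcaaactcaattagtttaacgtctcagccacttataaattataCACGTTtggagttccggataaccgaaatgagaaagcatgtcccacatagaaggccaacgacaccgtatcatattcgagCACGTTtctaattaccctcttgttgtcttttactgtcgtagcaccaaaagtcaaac

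JAZ8 had 1 G-box close to its start, JAZ3 had 2 G-boxes and 1 T/G-box, and JAZ12 had 2 T/G-boxes. These letters were not in the window of JAZ9, nor in those of JAZ1 and JAZ10. By day 3, JAZ9 and JAZ10, without a match, had the largest changes (log2 ratios -5.70 and -4.96), and JAZ1, also without one, a smaller change (-2.25). Genes with a match included JAZ5 (-4.32) and JAZ7 (-4.06) as well as JAZ3 (-1.69), JAZ6 (-1.29) and JAZ12 (-0.50), whose changes were the smallest. These ratios are from the authors' deposited table, with q-values given below, and no test was made.

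At day 0 the JAZ genes were expressed in every group. All 10 had a pooled FPKM of at least 10 in each of the 4 day 0 groups, and their sum ran from 1205 in differentiated constructs to 1821 in meristematic cells. JAZ1 (AT1G19180), an early identified target of COI1, was the highest of the 10 in each day 0 group and stood at rank 360 of all 33201 entries in differentiated constructs. Its pooled FPKM was 431 in differentiated cells, 420.4 in their constructs at day 0, 79.7 on day 1 and 88.6 on day 3, and 501 in meristematic cells and 587 in their constructs. The 4 day 0 values were all high and both later values low. JAZ2 (AT1G74950), a close relative of JAZ1, reached 281 FPKM in differentiated cells, 208 in constructs at day 0, 34.0 on day 1 and 32.7 on day 3, with 273 for meristematic cells and 261 for their constructs. For both genes the level at day 3 lay near that at day 1.

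JAZ5 and JAZ6 are a related pair with lower levels here. JAZ5 (AT1G17380) stood at 25.3 FPKM in differentiated cells, 22.2 in constructs at day 0, 2.41 on day 1 and 1.11 on day 3, and at 28.4 and 32.4 in meristematic cells and constructs. JAZ6 (AT1G72450) stood at 30.5 FPKM in differentiated cells, 20.2 in constructs at day 0, 15.0 on day 1 and 8.28 on day 3, and at 26.6 and 26.2 in meristematic cells and constructs. The pair had like levels at day 0, and JAZ5 had the lower level at both later times.

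JAZ3 and JAZ9 form a further related pair; a truncated JAZ3 protein that escapes destruction makes plants insensitive to jasmonate. JAZ3 (AT3G17860) reached 73.1 FPKM in differentiated cells, 73.4 in constructs at day 0, 17.8 on day 1 and 22.7 on day 3, and 84.6 and 77.4 in meristematic cells and constructs. JAZ9 (AT1G70700) began close to it, at 89.7 FPKM in differentiated cells and 77.7 in constructs at day 0, and stood at 9.63 at day 1 and 1.4995 at day 3, with 136 and 99.4 in meristematic cells and constructs. Among all entries JAZ9 went from rank 2166 in constructs at day 0 to rank 15565 at day 3, while JAZ3 went from rank 2286 to rank 5451.

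JAZ7 and JAZ8 are short relatives that carry their own repression motif; JAZ8 is known to resist jasmonate-driven destruction because its degron departs from the usual sequence. JAZ7 (AT2G34600) was the lowest of the 10 in differentiated cells at 18.1 FPKM, with 11.9 in constructs at day 0, 3.33 on day 1 and 0.708 on day 3, and 40.2 and 19.0 in meristematic cells and constructs. JAZ8 (AT1G30135) stood at 103 FPKM in differentiated cells, 89.7 in constructs at day 0, 15.5 on day 1 and 8.59 on day 3, and at 255 in meristematic cells and 109 in their constructs. In both genes isolated meristematic cells stood above the other 3 day 0 groups.

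JAZ10 (AT5G13220), known for splice forms that resist destruction and dampen the response, reached 224 FPKM in differentiated cells, 158 in constructs at day 0, 19.6 on day 1 and 5.08 on day 3, and 311 and 202 in meristematic cells and constructs. JAZ12 (AT5G20900), whose protein is also controlled by the ubiquitin ligase KEG, stood at 154 FPKM in differentiated cells, 122 in constructs at day 0, 125 on day 1 and 86.8 on day 3, and at 165 and 138 in meristematic cells and constructs. JAZ12 thus spanned 1.90-fold over the 6 groups, against 3.68-fold for JAZ6, the next narrowest, and 90.8-fold for JAZ9, the widest. For the 9 genes other than JAZ12, both later values lay below all 4 day 0 values. In the TAIR10.1 annotation JAZ12 overlaps AIP2 (AT5G20910), a ubiquitin ligase gene that stood at 46.98 FPKM at day 0 in differentiated constructs, 106 on day 1 and 83.3 on day 3, and both JAZ10 and JAZ12 overlap a noncoding gene. The sources used here do not say whether counting used the strand, so values of JAZ10 and JAZ12 are uncertain to that extent. No pair of the 10 shared a stretch of 31 bases in annotated transcripts.

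**Figure D1:**
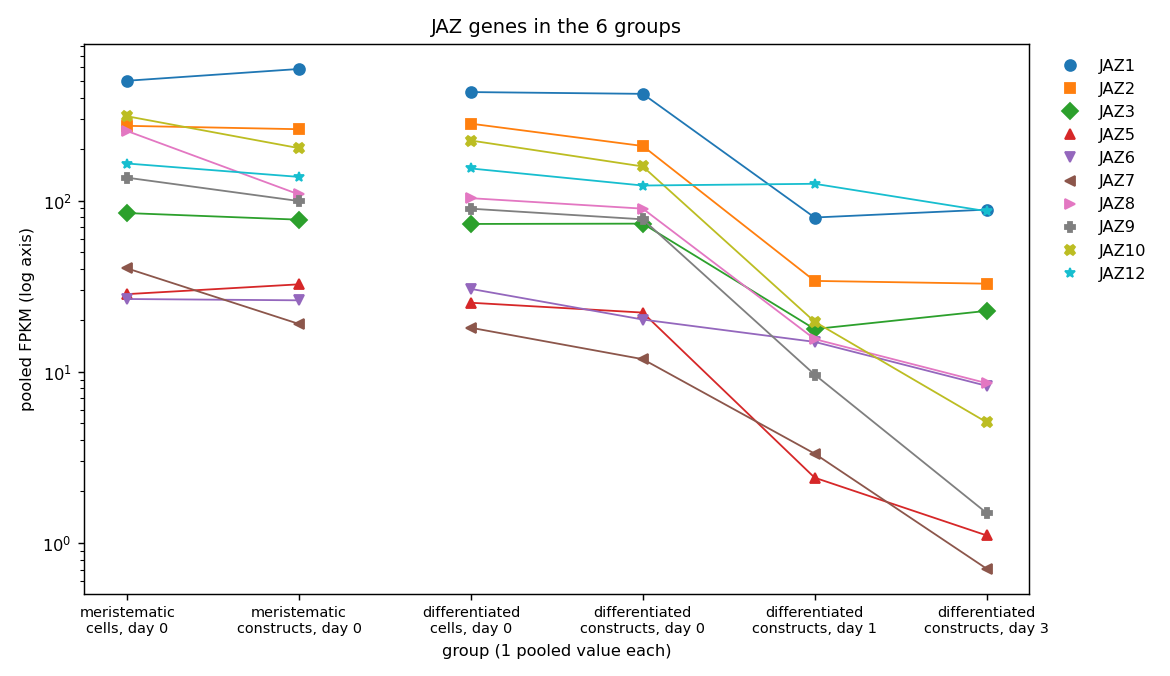
Pooled FPKM (log axis) of the 10 JAZ genes in the 6 groups, 1 pooled value per gene and group. The lines of 9 genes lie lower at days 1 and 3 than at day 0, while JAZ12 goes from 122 to 125 and 86.8 in differentiated constructs.

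Of the 10 genes, 6 were highest in meristematic cells, 2 (JAZ1 and JAZ5) in meristematic constructs and 2 (JAZ2 and JAZ6) in differentiated cells. At the low end, 8 were lowest at day 3, and JAZ1 and JAZ3 at day 1. Of 40 tests of the 10 genes between day 0 groups, 4 were called by the authors' deposited table. Over these comparisons 1.86% to 5.08% of all tested genes were called higher and 3.12% to 8.52% lower, so 4 of 40 is near the background. The column of meristematic cells also had the highest summed FPKM over all entries, 1234075 against 741440 to 994663 in the other groups. With each column scaled to the same total, as TPM is, the JAZ sum came to 1476 in meristematic cells and 1587 in the constructs made from them, so the order of these groups turns with the scale. Replicate 3 of the meristematic cells had the highest summed FPKM of all 17 libraries, 996810, and the fewest lines at 1 FPKM or more, 14756. Replicates 1 and 2 had sums of 768155 and 748876, with 16587 and 16496 such lines. All 4 called tests involve meristematic cells, and the part of replicate 3 in them was not tested.

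The first day in the construct was compared within differentiated tissue, day 1 against day 0. Most JAZ genes were several-fold lower at day 1. Of 10 genes, 8 fell and none rose, against 16.4% of 17993 tested genes called lower and 16.2% called higher. The median log2 ratio of the 10 was -2.47 by the authors' deposited table, against 0.06 for all tested genes. JAZ5 fell by 3.20 on the log2 scale, a 9.21-fold change, by the authors' deposited table. JAZ9 and JAZ10 each fell by 3.01 on the log2 scale by the authors' deposited table, and JAZ2 had a log2 ratio of -2.62. JAZ8 had a log2 ratio of -2.53, JAZ1 one of -2.40 and JAZ3 one of -2.05 by the authors' deposited table. JAZ7 had a log2 ratio of -1.83 and a larger q of 0.0137 by the authors' deposited table. JAZ6, at -0.43 (q 0.319), and JAZ12, at 0.03 (q 0.966), did not pass by the authors' deposited table.

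From day 1 to day 3 fewer JAZ genes passed. JAZ9 and JAZ10 fell further, with log2 ratios of -2.68 (q 0.00102) and -1.95 by the authors' deposited table. These 2 of 10 compare with 8.48% of 17611 tested genes called lower; no JAZ gene rose, against 5.88% called higher. JAZ1 (0.15, q 0.780), JAZ2 (-0.05, q 0.930) and JAZ3 (0.35, q 0.483) did not pass by the authors' deposited table. JAZ7 had a log2 ratio of -2.23 and JAZ5 one of -1.12, yet neither passed (q 0.0929 and 0.188) by the authors' deposited table, at levels of 3.33 FPKM or less. JAZ6 (-0.85, q 0.0873), JAZ8 (-0.85, q 0.190) and JAZ12 (-0.53, q 0.506) did not pass by the authors' deposited table. Whether JAZ9 and JAZ10 differed from the others in this step was not tested.

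Between day 0 and day 3, 9 of 10 JAZ genes fell and none rose, against 21.2% of 18372 tested genes called lower and 21.0% called higher. This comparison shares its day 0 and day 3 libraries with the steps above and is no separate evidence. The median log2 ratio of the 10 was -3.03 by the authors' deposited table, against 0.05 for all tested genes. JAZ9 fell by 5.70 on the log2 scale, 51.8-fold, by the authors' deposited table; 1.21% of tested genes had a lower ratio. JAZ10 fell by 4.96 on the log2 scale, 31.2-fold, and JAZ5 had a log2 ratio of -4.32, by the authors' deposited table. JAZ7 had a log2 ratio of -4.06 (q 0.00908) and JAZ8 one of -3.39 by the authors' deposited table. JAZ2 at -2.67, JAZ1 at -2.25, JAZ3 at -1.69 and JAZ6 at -1.29 (q 0.00731) made up the smaller changes by the authors' deposited table. JAZ12 had a log2 ratio of -0.50 (q 0.471) and did not pass by the authors' deposited table. Ratios of genes near 1 FPKM at day 3 depend on the scale: as log2(FPKM + 1), the difference was -4.98 for JAZ9, -3.46 for JAZ5 and -2.91 for JAZ7.

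**Figure D2:**
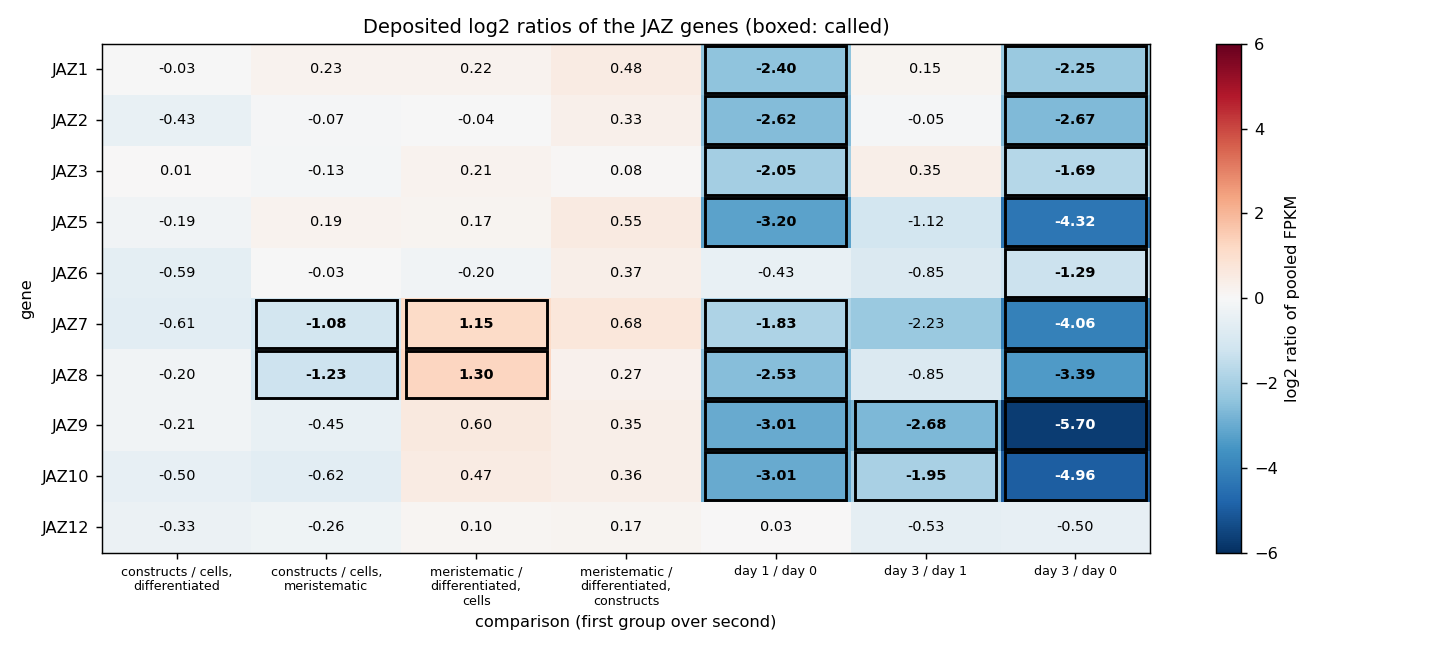
Log2 ratios of pooled FPKM from the authors' deposited table, for the 10 JAZ genes (rows) in 7 comparisons (columns), with called cells boxed. Day 1 over day 0 has 8 called cells, day 3 over day 0 has 9 and day 3 over day 1 has 2, all negative.

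The makeup of the family's RNA differed between days. In differentiated constructs the summed JAZ level was 1205 FPKM at day 0, 322 at day 1 and 256 at day 3, so that 26.7% and 21.3% of the day 0 sum were left. Without JAZ12 these shares were 18.2% and 15.6%. JAZ1, JAZ2 and JAZ10 held 65.3% of the sum at day 0. At day 1 JAZ12 alone held 38.9%, from 10.2% at day 0, and at day 3 JAZ1 and JAZ12 held 34.6% and 33.9%. JAZ10 held 13.1% of the sum at day 0 and 1.98% at day 3. These are shares of pooled values and carry no error.

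**Figure D3:**
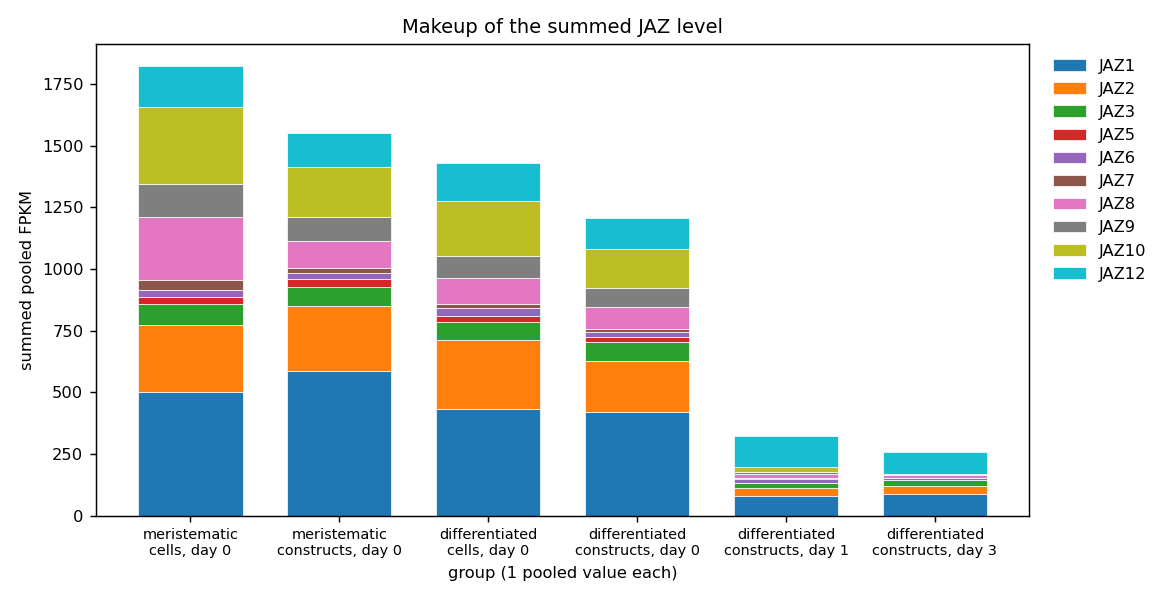
Summed pooled FPKM of the 10 JAZ genes in each group, stacked by gene. The sums are 1821, 1552, 1430, 1205, 322 and 256 from left to right, and JAZ12 makes up 38.9% of the bar at day 1.

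Constructs were compared with isolated cells of the same tissue at day 0, to ask what differed after printing. In differentiated tissue none of the 10 JAZ genes was called, against 7.38% of 17654 tested genes called lower and 5.08% called higher. Their log2 ratios ran from -0.61 for JAZ7 (q 0.248) to 0.01 for JAZ3 (q 0.991) by the authors' deposited table. Their median was -0.27, with 9 below 0, against -0.12 for all tested genes. JAZ6 had the smallest q, 0.153, at a log2 ratio of -0.59 by the authors' deposited table. Unadjusted p-values were not used here, since the table gives q-values, and a q that misses the threshold does not show that levels were alike.

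In meristematic tissue JAZ8 and JAZ7 fell in constructs, 2 of 10, against 8.52% of 17561 tested genes called lower; none rose, against 1.86% called higher. JAZ8 went from 255 to 109 FPKM (log2 ratio -1.23, q 0.0119) and JAZ7 from 40.2 to 19.0 (-1.08, q 0.0181) by the authors' deposited table. Relative to the median of all tested genes, -0.14, the differences were -1.09 and -0.94. Rescaling each group to the same total left JAZ8 at -0.89 and JAZ7 at -0.74, within 2-fold. JAZ10 at -0.62 (q 0.185) and JAZ9 at -0.45 (q 0.297) did not pass, and JAZ1 stood at 0.23 (q 0.705), by the authors' deposited table. Whether the difference between constructs and cells was itself unequal between tissues was not tested.

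Among isolated cells, JAZ8 and JAZ7 were also the genes called between tissues. They were higher in meristematic than in differentiated cells, JAZ8 2.47-fold (log2 ratio 1.302, q 0.00623) and JAZ7 2.22-fold (1.15, q 0.0135) by the authors' deposited table. These 2 of 10 compare with 4.63% of 17623 tested genes called higher; none was lower, against 3.12%. Both comparisons use the meristematic cells, whose JAZ7 and JAZ8 levels enter each, so they are not independent. The median of all tested genes was 0.12 here, and relative to it JAZ8 stood at 1.18 and JAZ7 at 1.03. After rescaling to the same total they stood at 0.99 and 0.84. JAZ9 at 0.60 (q 0.150) and JAZ10 at 0.47 (q 0.342) did not pass by the authors' deposited table.

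Markers of root cell types differed between these groups in more than 1 direction. The sum of 3 root cap markers (SMB, BRN1 and BRN2) was 66.5 FPKM in differentiated cells, 152 in meristematic cells, with BRN1 and BRN2 called higher there, and 90.8 in meristematic constructs, with BRN1 called lower (q 0.0395) than in the cells. The sum of 3 root hair markers (COBL9, EXPA7 and RSL4) was 116, 167 and 78.2 in the same groups, with none called between the cells and all 3 called lower in meristematic constructs, at q 0.00418, 0.00678 and 0.00509. The sum of 5 endodermal markers (SCR, MYB36, CASP1, CASP2 and ESB1) was 1084, 1063 and 754, with none called between the cells and CASP2 lower in meristematic constructs, and that of the 5 meristem markers was 39.8, 30.3 and 20.9. Of all tested genes, 8.52% were called lower in meristematic constructs than in the cells. Between the cells 4.63% were called higher and 3.12% lower. In differentiated constructs at day 0 the root cap and root hair sums were 33.3 and 67.0, also below those of differentiated cells. BRN2 (log2 ratio -1.74), BRN1 (-0.87, q 0.0271), COBL9 (-1.73), EXPA7 (-0.74, q 0.0493) and MYB36 (-0.76, q 0.0461) were called lower there by the authors' deposited table. Of all tested genes 7.38% were called lower in that comparison, and no JAZ gene was called. At these shares, 1 marker called in a list of 3 or 5 is no sign of a difference from other genes. None of these markers was at 0 in any group, and their part in the JAZ7 and JAZ8 differences was not tested. Between meristematic and differentiated constructs no JAZ gene was called, against 4.77% of 17627 tested genes called higher and 4.61% called lower. All 10 log2 ratios lay above 0 there, from 0.08 for JAZ3 to 0.68 for JAZ7 (q 0.180), with a median of 0.35 against 0.02 for all tested genes, by the authors' deposited table. Of the markers above, BRN1 and BRN2 were called higher in meristematic than in differentiated constructs (log2 ratios 1.28 and 2.31). SCR was called lower (-0.81, q 0.0397), and no other marker above was called, by the authors' deposited table.

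The TIFY family, named for a motif the JAZ proteins share, has 7 further listed genes. None was called among the 5 that could be tested in 6 comparisons, or the 3 tested for day 3 over day 1, against all-gene shares of 1.86% to 21.2% called in either direction, so at this number of genes none called is no sign of a difference from other genes. JAZ11 (AT3G43440), a close relative of JAZ12, stood at 13.1 FPKM at day 0 in differentiated constructs, 11.5 on day 1 and 10.03 on day 3. JAZ13 (AT3G22275), a relative of JAZ7 and JAZ8, stood at 2.45, 0.308 and 0.238 FPKM at the same times (day 3 over day 0, log2 ratio -3.36, q 0.121, by the authors' deposited table). JAZ4 (AT1G48500), a relative of JAZ3 and JAZ9, and PPD1 (AT4G14713) stayed under 1 FPKM in all 6 groups. TIFY8 (AT4G32570) stood at 2.26, 0.691 and 0.505 FPKM. The entry of PPD2 (AT4G14720), a TIFY regulator of leaf growth, stood at 54.5, 72.8 and 66.6 FPKM, and that of ZIM (AT4G24470) at 19.3, 23.5 and 32.6. Each of these entries also holds a further locus (AT4G14716 and AT4G24460), so the values cannot be credited to the TIFY gene alone.

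Of 13 genes of jasmonate reception and corepression, 3 rose by day 1 and none fell, with a median log2 ratio of 0.02. Of all tested genes 16.2% were called higher and 16.4% lower, so 3 of 13 is near the background. COI1 (AT2G39940), the receptor, went from 8.70 FPKM at day 0 to 16.4 at day 1 and 16.9 at day 3 (day 1 over day 0, 0.91, q 0.0326; day 3 over day 0, 0.96, q 0.0455, by the authors' deposited table). TPR2 (AT3G16830), a TOPLESS relative, rose by 0.91 (q 0.0165) on the log2 scale by day 1 and by 1.47 by day 3, by the authors' deposited table. HDA19 (AT4G38130), a histone deacetylase recruited by corepressors, rose by 0.78 (q 0.0362) and by 1.05 (q 0.01005) on the log2 scale by the authors' deposited table. NINJA (AT4G28910) stood at 24.7, 21.3 and 27.2 FPKM at days 0, 1 and 3 and was not called. After printing in differentiated tissue, 3 of 13 were higher, against 5.08% of all tested genes: TPR3 (AT5G27030) at 0.98 (q 0.01005), TPR4 (AT3G15880) at 0.82 (q 0.0360) and the Mediator subunit gene MED25 (AT1G25540) at 0.79 (q 0.0480) by the authors' deposited table. None of the 13 was called in the other day 0 comparisons.

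Of the factors that JAZ proteins bind, some were called higher and some lower in differentiated constructs. Of 9 tested, 3 fell and 1 rose by day 1, with a median log2 ratio of -0.12, and 4 fell and 2 rose by day 3, with a median of -0.18. Of all tested genes 16.4% were called lower and 16.2% higher by day 1, and 21.2% and 21.0% by day 3, so the number that rose is near the background. MYC2 (AT1G32640), a main jasmonate activator, reached 142 FPKM in differentiated cells, 79.8 in constructs at day 0, 12.4 on day 1 and 5.14 on day 3. Its log2 ratio was -0.83 (q 0.0471) after printing, -2.69 over the first day and -1.27 (q 0.00387) from day 1 to day 3 by the authors' deposited table. JAM1 (AT2G46510), a repressor that competes with MYC2, went from 17.8 FPKM at day 0 to 1.97 and 0.705 (day 3 over day 0, log2 ratio -4.65, by the authors' deposited table). MYC3 (AT5G46760), which acts beside MYC2, stood at 26.2, 31.1 and 33.7 FPKM and was not called. MYC4 (AT4G17880), a further relative, was lower after printing, at -1.46 (q 0.00221), and higher at day 1 than at day 0, at 1.49 (q 0.00144), by the authors' deposited table. ICE1 (AT3G26744), a cold response factor, fell by 4.18 on the log2 scale by day 3 by the authors' deposited table.

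Genes that make and remove jasmonate were mostly lower after day 0. Of 12 tested synthesis genes 10 fell by day 1 and 11 by day 3, none rose in either, and the median log2 ratios were -2.58 and -2.91, against 16.4% and 21.2% of all tested genes called lower. AOC3 (AT3G25780), an allene oxide cyclase, went from 409 FPKM at day 0 to 42.3 and 17.3, and LOX3 (AT1G17420), a lipoxygenase, from 31.1 to 1.88 and 1.99. JAR1 (AT2G46370), which makes the active isoleucine conjugate, stood at 88.0, 24.9 and 15.6 FPKM. LOX6 (AT1G67560), a lipoxygenase known for early jasmonate formation in roots, stood at 55.4, 53.7 and 48.8 FPKM and was not called over time. Of 9 tested turnover genes 6 fell and 1 rose by day 1, with a median log2 ratio of -2.17. By day 3, 7 fell and none rose, with a median of -3.21. Of all tested genes 16.4% were called lower and 16.2% higher by day 1, and 21.2% and 21.0% by day 3. The single turnover gene that rose is thus near the background. JOX4 (AT2G38240), an oxidase that inactivates jasmonate, went from 461 FPKM to 49.1 and 18.8, whereas CYP94B3 (AT3G48520), which hydroxylates the isoleucine conjugate, stood at 404, 331 and 329.9 and was not called.

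Of 8 tested response genes 5 fell and 1 rose by day 1, with a median log2 ratio of -1.93, and 5 fell and 2 rose by day 3, with a median of -3.62. The shares of all tested genes called lower were 16.4% and 21.2%, and those called higher 16.2% and 21.0%, which the genes that rose are near. TAT3 (AT2G24850), a tyrosine aminotransferase gene induced by jasmonate, went from 833 FPKM at day 0 to 105 at day 1 and 19.0 at day 3. ORA47 (AT1G74930), which switches on genes of jasmonate synthesis, stood at 85.2 FPKM in differentiated cells, 15.2 in constructs at day 0, 2.57 on day 1 and 0.394 on day 3. After printing in differentiated tissue, ORA47 (log2 ratio -2.48), PR4 (-1.88) and RRTF1 (-0.92, q 0.0311) were called lower and VSP1 higher (1.92, q 0.0461), by the authors' deposited table. These were among 9 tested response genes, against 7.38% of all tested genes called lower and 5.08% higher. PR4 (AT3G04720) rose over time, from 96.4 FPKM at day 0 to 250 at day 1 and 210 at day 3. Its log2 ratios over day 0 were 1.38 and 1.13 (q 0.0121) by the authors' deposited table. PDF1.2a (AT5G44420) and PDF1.2b (AT2G26020), defensin genes of the joint jasmonate and ethylene branch, were listed at 0 in all 6 groups.

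**Figure D4:**
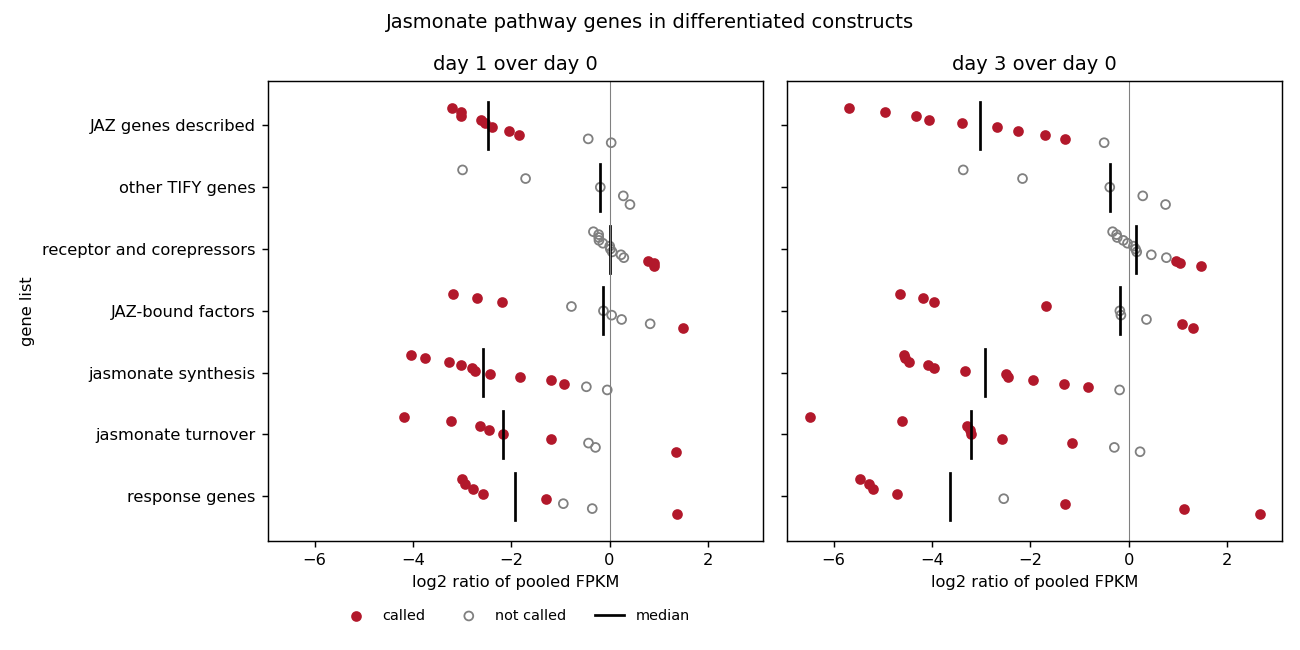
Log2 ratios of pooled FPKM in differentiated constructs for tested genes of the jasmonate lists, day 1 over day 0 (left) and day 3 over day 0 (right); each point is 1 gene, filled where called, and bars mark medians. The JAZ medians are -2.47 and -3.03, and those of the receptor and corepressor list are 0.02 and 0.14.

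Markers of root cell types also differed over these days. The sum of the 5 endodermal markers was 852 FPKM at day 0, 503 at day 1 and 133 at day 3. Of them 1 was called lower by day 1 and 4 by day 3. SCR did not follow the sum, stood at 12.1, 11.6 and 14.8 FPKM, and was not called. Its values may include reads of the SCR-mCherry transgene that all 6 groups carried. Of all tested genes 16.4% were called lower by day 1 and 21.2% by day 3, so a single marker called by day 1 is near the background. The sum of the 3 root hair markers was 67.0, 87.5 and 27.3, with none called by day 1 and 2 lower by day 3. For the 3 root cap markers the sum was 33.3, 19.8 and 6.28, with 1 lower by day 1 and 2 by day 3, and for the 5 meristem markers 30.0, 9.85 and 7.37, with 2 of the 4 tested lower by each. None of these markers was at 0 at any of these times. A further 4 markers, of green tissue (RBCS1A, LHCB1.3, LHCB2.1 and CAB3), summed to 0.978 to 8.67 FPKM over the 6 groups. LHCB2.1 was at 0 in differentiated constructs at days 0 and 3, and CAB3 at day 3. The part of these cell types in the JAZ differences was not tested.

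Within the family, the 36 pairs of genes without JAZ12 had Pearson correlations of log2(FPKM + 1) over the 6 groups from 0.839 (JAZ3 with JAZ6) to 0.998 (JAZ9 with JAZ10), with a median of 0.960. The 9 pairs with JAZ12 ran from 0.692 to 0.941. The 6 points are pooled groups that share a scale and a step after day 0, so these values only describe the profiles. Outside the family, 8726 entries with at least 10 FPKM in some group and a log2 range of at least 1 were compared with the mean standardized profile of the 10 genes. The 6 named genes with the highest correlation were UMAMIT4 (AT3G18200), SPS2F (AT5G11110), GATL2 (AT3G50760), HMT-1 (AT3G25900), HEMB1 (AT1G69740) and COR413-PM1 (AT2G15970), from 0.9998 down to 0.9992. UMAMIT4, of a transporter family, stood at 77.3 FPKM in differentiated cells, 47.7 in constructs at day 0, 8.07 on day 1 and 3.08 on day 3, and at 98.3 and 74.1 in meristematic cells and constructs. COR413-PM1, a cold-regulated membrane protein gene, stood at 1802, 1082, 94.2 and 31.5 FPKM in the same differentiated groups, and at 2851 and 1488 in meristematic cells and constructs.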

How the data were processed

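Poly(A)-selected RNA was sequenced with a directional kit as paired-end reads, per the labels' protocols. HISAT2 and Cufflinks were used, per the submitters' processing notes; the sources used here do not give versions, settings, build or use of strand. FPKM values per library and per pooled group were deposited by the authors. The log2 ratios and q-values (adjusted p-values) of 7 comparisons were deposited by the authors as well, and the sources used here do not name the test behind them. Ratios against a group at 0 were left out of medians.

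Here the members were matched by locus, calls were counted, and all genes of the table gave the background. Limma on library columns was planned only if lines held 1 gene each; they did not, so it was not run. The 3 scalings, and the correlation after lines are shuffled, were tried on simulated data, and the other steps were not. Python 3.11.15, pandas 2.3.3, numpy 2.4.6 and matplotlib 3.10.9 were used. The 10 members and the gene lists were chosen with earlier results of these data known. Named were all members, other TIFY genes, up to 4 called genes per list and comparison (smallest q, then largest ratio), list genes given as values, markers, and the 6 genes of most similar profile. Other settings tried were a q of 0.01, an FPKM minimum of 5 or none, a 2-fold minimum, a pseudocount of 1, and scalings by TPM, median ratio and quantiles.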

Additional observations from a re-analysis of the deposited data

How the results depend on the processing

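For day 1 over day 0 and day 3 over day 0, the counts of called JAZ genes stayed within 1.5 times and in the same direction under a q of 0.01, FPKM minimums of 5 or none, a 2-fold minimum, and 2-fold counts under 3 scalings and a pseudocount of 1. Day 3 over day 1 had 2 called genes, and 4 beyond 2-fold without q, both as deposited (a count added after seeing the data) and with median-ratio factors; the construction of these counts drops q. The 2 genes called between meristematic constructs and cells became 0 at a q of 0.01, 0 beyond 2-fold after TPM or quantile scaling and 1 with median-ratio factors. The 2 called between isolated cells became 1 at a q of 0.01, 0 beyond 2-fold after TPM scaling and 1 after quantile scaling. Beyond the change of threshold or scale itself, the cause was not tested. No called ratio of a JAZ gene changed sign in 92 values under these scalings and the pseudocount, while 22 of 188 uncalled ones did. A pseudocount cannot change a sign, and TPM and median-ratio scaling shift all ratios of a comparison by the same amount. For ratios as large as the called ones, the unchanged signs are thus no check. Sizes also depended on the scale. For day 3 over day 0, the pseudocount of 1 took JAZ9 from a log2 ratio of -5.70 to -4.98 and JAZ5 from -4.32 to -3.46. JAZ7 went from -4.06 (q 0.00908 by the authors' deposited table) to -2.91. TPM scaling moved the median over all tested genes for day 3 over day 0 from a log2 ratio of 0.05 to 0.37. No paired analysis was possible because a line of the library columns does not hold 1 gene; leaving out a replicate was not run for the same reason. Depth is unknown.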

Other observations

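A few listed jasmonate genes did not follow a steady course in differentiated constructs, and they were chosen after their values were seen. ST2A (AT5G07010), a sulfotransferase of a hydroxylated jasmonate, stood at 16.5 FPKM at day 0, 42.5 at day 1 and 19.4 at day 3, and passed in both steps (log2 ratio 1.36, q 0.00102, then -1.13 with a q of 0.0231, by the authors' deposited table). LOX4 (AT1G72520), a lipoxygenase, went from 12.0 FPKM to 0.890 and then 2.20 (day 3 over day 1, log2 ratio 1.31, q 0.0451, by the authors' deposited table). VSP1 (AT5G24780), a storage protein gene used as a jasmonate marker in shoots, stood at 1.68, 0.874 and 10.7 FPKM (day 3 over day 0, log2 ratio 2.67, q 0.00102, by the authors' deposited table). Neither of its single steps passed (log2 ratio -0.94, q 0.547, then 3.61 with a q of 0.245, by the authors' deposited table).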
